A study of Mus musculus with 3 samples.

Results

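BMAL1 only peaks far from genes are sites in mouse liver DNA that were enriched in the BMAL1 chromatin immunoprecipitation (ChIP), did not overlap any peak of the CLK (CLOCK) ChIP, and lay outside the gene to which they were assigned and more than 50000 bp from its transcription start. There were 308 of them, which is 22.5% of the 1368 BMAL1 only peaks and part of the 2127 BMAL1 and CLK peaks in the deposited table. They were selected on measured values, because a site had to be called in the BMAL1 ChIP and not in the CLK ChIP. Their enrichment is therefore described without a test, and tests are kept for the DNA sequence, which the selection did not use. The chromatin came from livers of adult male C57BL/6 mice, 3 to 6 months old. They were kept for at least 2 weeks in 12 h of light and 12 h of dark and killed at ZT8, 8 h after lights on. All 3 libraries, the CLK ChIP, the BMAL1 ChIP and the Input (sonicated chromatin without antibody), came from this genotype, tissue and time, and each was 1 library with no replicate. Hence nothing below measures variation between animals, and the 3 libraries were made from a single liver extract. The BMAL1 ChIP held 28920754 uniquely mapped tags, the CLK ChIP 37371047 and the Input 18846303.

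BMAL1 and CLOCK form the heterodimer that drives the transcriptional feedback loop of the mammalian circadian clock. The complex binds the e-box, whose canonical core is CACGTG, and at many clock genes it does so close to the transcription start. Transcription factors also bind distal elements, which can act on genes far along the chromosome, and such sites are harder to tie to a gene than those at starts. The gene named for a distal peak is the one with the closest annotated start and serves here as an address, not as a target.

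Only 13 of the 308 peaks had CACGTG within 100 bp of the summit, the base with the most overlapping tags. Those peaks are shown first because they carry the motif that the complex is known to bind. The sequences below are the plus strand of mouse build NCBIM37 (mm9), 5′ to 3′, with the CACGTG cores in capitals and 17 bases kept on either side. The peaks with more than 1 core were those assigned to Itpr1, AK029768 and BC100417.
Rragd, chr4:123668028-123668067: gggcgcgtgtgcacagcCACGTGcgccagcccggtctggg
Itpr1, chr6:108469411-108469526: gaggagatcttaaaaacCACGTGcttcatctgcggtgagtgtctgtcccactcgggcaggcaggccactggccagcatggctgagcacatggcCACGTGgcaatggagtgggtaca
AK029768, chr13:39533763-39533891: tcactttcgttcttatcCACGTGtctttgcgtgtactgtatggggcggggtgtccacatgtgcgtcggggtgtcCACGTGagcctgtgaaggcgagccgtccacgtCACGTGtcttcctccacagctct
BC100417, chr15:77066536-77066590: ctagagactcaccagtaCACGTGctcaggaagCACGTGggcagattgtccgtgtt

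Rragd and the 9 peaks below had a single core. Across all 13 peaks the core closest to the summit lay a median of 32.5 bp from it, and in 9 of the 13 it lay within 50 bp.
Kdm4c, chr4:74226015-74226054: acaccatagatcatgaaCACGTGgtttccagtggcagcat
Azin1, chr15:38361561-38361600: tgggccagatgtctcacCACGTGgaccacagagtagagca
Trpc7, chr13:57160566-57160605: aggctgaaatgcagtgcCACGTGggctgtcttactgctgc
Ccdc50, chr16:27856327-27856366: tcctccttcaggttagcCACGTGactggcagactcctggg
AK007216, chr7:142449042-142449081: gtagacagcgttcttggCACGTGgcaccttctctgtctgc
AK042944, chr8:110593898-110593937: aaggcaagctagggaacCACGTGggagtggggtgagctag
Zfat, chr15:68194911-68194950: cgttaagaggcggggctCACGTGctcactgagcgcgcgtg
Naaladl2, chr3:24591053-24591092: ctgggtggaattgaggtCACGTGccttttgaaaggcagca
Abcc12, chr8:88858101-88858140: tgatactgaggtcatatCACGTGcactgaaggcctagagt

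The bases next to the core varied among these sites. Taking the core nearest the summit of each peak, CCACGTGG was present in 4 of 13 peaks, and CCACGTGC (or its reverse complement) and GCACGTGA (or its reverse complement) in 3 each. In the 288 other BMAL1 only peaks with a core, CCACGTGG accounted for 3.82%, CCACGTGC for 17.7% and GCACGTGA for 9.72%. These shares rest on few far peaks and were not tested.

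The strongest of the 308 peaks was the one assigned in the deposited table to Rragd. GENCODE calls the gene at that place Rragc and has Rragd elsewhere on chromosome 4, so this symbol is doubtful. Both genes encode Rag GTPases, which take part in amino acid sensing by mTORC1. It spanned chr4:123667904-123668439 and had a score of 201.31 (a score of 50, the lowest allowed, stands for a peak caller's p-value of 1e-05, and each further 10 units for a p-value 10 times smaller), a fold enrichment over Input of 13.39 and 57 tags. Its single e-box was centred at -20.5 bp from the summit. The peak assigned to Itpr1, the gene of an endoplasmic reticulum calcium channel, spanned chr6:108469209-108469730. Its score was the fourth highest, with a value of 134.12, a fold enrichment of 10.10 and 46 tags. The peak assigned to the transcript AK029768, chr13:39533556-39534148, was the fifth in order, with a score of 119.60, a fold enrichment of 12.72 and 41 tags, and it was the only far peak with 3 e-boxes. These were the only 3 far peaks that combined an e-box with a score of at least 100.

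The remaining e-box sites were weak. Kdm4c encodes a histone demethylase, and its peak had a score of 61.82 and a fold enrichment of 7.99. Azin1 encodes an inhibitor of antizyme in polyamine metabolism, and its peak had a score of 60.53. The peak near Trpc7, a cation channel gene, scored 58.64. The lowest of the 13 was the BC100417 peak, with a score of 50.79 but a fold enrichment of 9.86 and 2 cores. The median score was 57.83 in the 13 peaks with an e-box and 55.60 in the 295 without, and the median fold enrichment was 7.99 and 6.51. An e-box was therefore not restricted to the high scores, as the plot of score against distance shows.

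**Figure D1:**
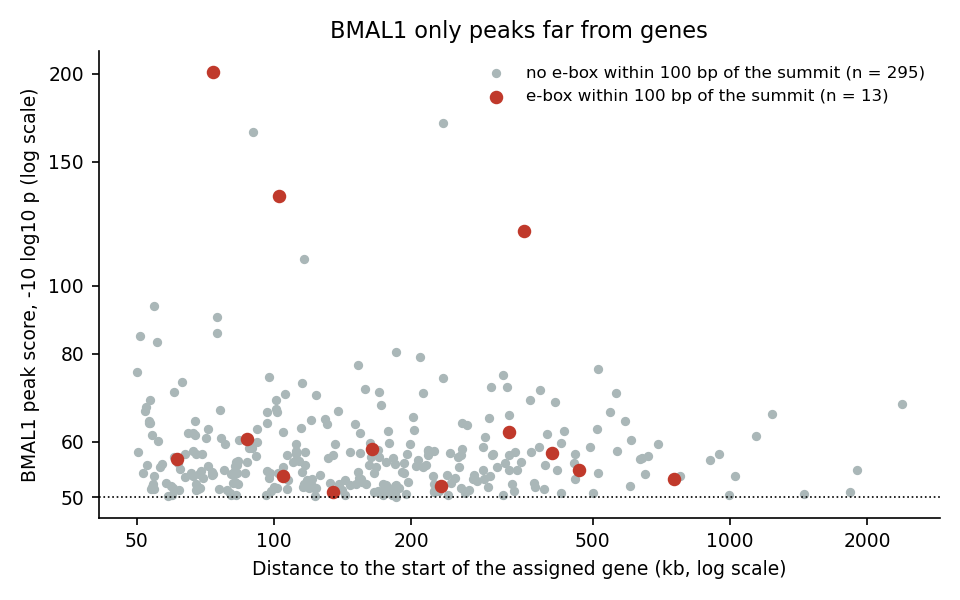
Each point is 1 of the 308 BMAL1 only peaks far from genes, placed by its distance to the start of the assigned gene (kb, log scale) and its BMAL1 peak score (log scale; dotted line, the calling threshold of 50). The 13 peaks with an e-box within 100 bp of the summit are in red and take 3 of the 6 places at scores from 100 up, while the other 10 lie among the weak peaks.

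Strong peaks without an e-box were also present. The second strongest peak, assigned to AK049041 and spanning chr1:71934360-71934923, had a score of 170.07, a fold enrichment of 11.84 and 45 tags. The third, assigned to AK039634 and spanning chr13:44401397-44402195, had a score of 165.47, a fold enrichment of 9.53 and 67 tags, the most of any far peak. The sixth, assigned to Fam196a and spanning chr7:142246166-142246825, had a score of 108.97 and 38 tags. Each summit with 50 bases on either side is printed because their enrichment matched that of the e-box sites. Capitals mark hexamers that differ from CACGTG at 1 position, of which the AK049041 window held none and the others 1 each.
AK049041, chr1:71934471-71934571: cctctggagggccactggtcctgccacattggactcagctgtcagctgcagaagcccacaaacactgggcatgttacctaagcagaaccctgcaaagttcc
AK039634, chr13:44401743-44401843: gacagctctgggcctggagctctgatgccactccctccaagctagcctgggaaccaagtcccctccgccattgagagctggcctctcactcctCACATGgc
Fam196a, chr7:142246511-142246611: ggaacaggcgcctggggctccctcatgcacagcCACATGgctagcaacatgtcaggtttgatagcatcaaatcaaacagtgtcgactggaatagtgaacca

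The AK049041 and AK039634 peaks each had a CLK summit near them on the chromosome, 13025 bp and 12464 bp away. Apart from these, 4 far peaks had a CLK summit at a shorter distance. The rest of the 10 strongest peaks were assigned to AK146213 (score 93.64), AK018841 (90.14), AK135377 (85.59) and Spata13 (84.80), and none of these held an e-box. Thus 3 of the 10 strongest far peaks had the motif.

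As a group the 308 peaks were weak. Their scores had a median of 55.8 (interquartile range 52.4 to 60.9, full range 50.11 to 201.31), their fold enrichment a median of 6.60 (5.92 to 7.37), and their tags a median of 19 (17 to 22). A score under 60, that is within 10 units of the calling threshold, was found in 224 peaks (72.7%). The same share was 58.2% of the 340 BMAL1 only peaks that lay between genes but within 50000 bp of the assigned start, 60.7% of the 496 inside genes and 30.9% of the 223 within 1000 bp of a start. A score of at least 100 was reached by 6 far peaks (1.95%), compared with 7.65% and 4.44% of the first 2 of those groups and 49 of the 223 peaks at starts. The false discovery rate assigned by the peak caller was 5% or lower for 80 far peaks (26.0%), 136 of the 340 between genes, 38.9% of those inside genes and 68.2% of those at starts. The curves of the scores show the far peaks rising fastest to 100% and the peaks at starts slowest.

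**Figure D2:**
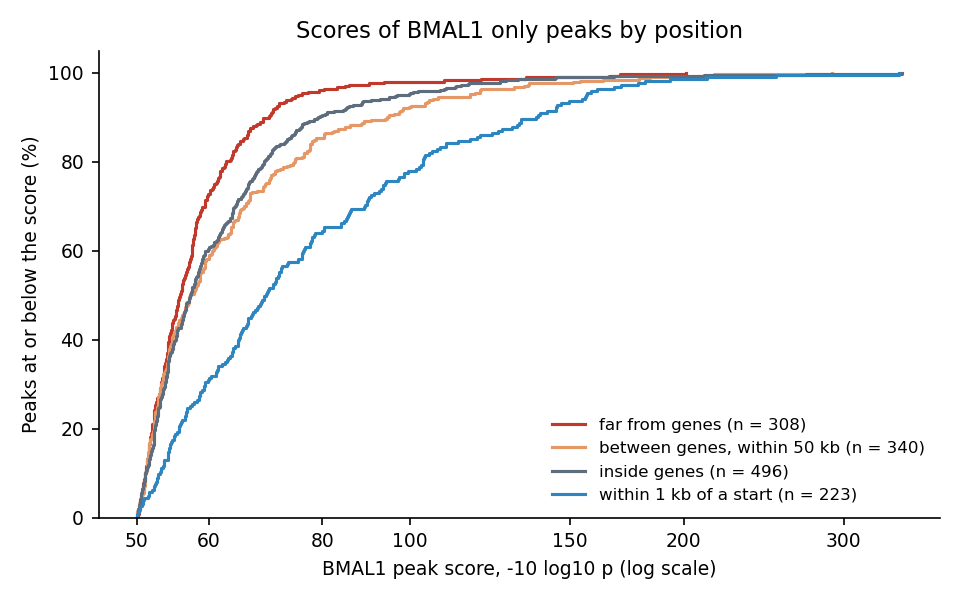
Cumulative share of BMAL1 only peaks (vertical axis, %) at or below each BMAL1 peak score (horizontal axis, log scale), with 1 line for each position group. At a score of 60 the far peaks had reached 72.7% and the peaks within 1 kb of a start 30.9%.

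The share of far peaks with an e-box within 100 bp of the summit was 4.22% (13 of 308, exact 95% confidence interval 2.27 to 7.11%). The control was a window of nearly the same length in the flank of the same peak, made of the bases from 400 to 500 bp on both sides, in which 5 of 308 peaks (1.62%) had an e-box. No peak had it in both, so the comparison was 13 against 5 peaks, a difference that did not pass the threshold (exact McNemar test, two-sided, p = 0.0963). By the same exact test, the call depended on settings, since it passed with windows around the peak centre (16 against 6 peaks, p = 0.0414), in the 209 peaks beyond 100000 bp (10 against 2, p = 0.0386) and without the 2 peaks that had a CLK peak within 1000 bp (13 of 306 against 4, p = 0.0490). For reference, 1.49% of all tiles of the genome, each as long as the summit window, that lay outside genes and beyond 50000 bp of every start held CACGTG, and 1.96% of all tiles did. The interval of the 308 far summits lay above both values. The tiles were not matched for base composition, however. Their mean G+C content was 39.7% and 41.8%, against a median of 50.2% in the far summit windows. The part of base composition in this difference was not tested. The gene-distant tiles were also chosen by the GENCODE annotation. For the 194 peaks that were far by it as well, the interval included both tile shares.

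The e-box share was lower in the far peaks than in every other group of peaks compared. Of the BMAL1 only peaks between genes within 50000 bp, 68 of 340 had one (Fisher's exact test, two-sided, p = 3.97e-10, and 5.30e-10 after adjustment over 4 comparisons). By the same exact test the share inside genes was 20.6% (102 of 496, adjusted p = 1.83e-11), and within 1000 bp of a start it was 52.9% (118 of 223, adjusted p = 2.07e-39). Sites called in both ChIPs and chosen by the same position rule, the 13 CLK:BMAL1 peaks, had an e-box in 6 cases (46.2%, exact test, adjusted p = 2.49e-05). Their median distance to the assigned start was 70384 bp, against 153176 bp for the far peaks. These tests compare peaks of 1 BMAL1 library, not animals or conditions. In the flanks, the shares of the groups were 1.62% for far peaks and 2.35%, 2.62% and 4.93% for the BMAL1 only peaks between genes, inside genes and at starts. Of the 13 CLK:BMAL1 peaks, 3 had an e-box in the flank (23.1%).

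Peak strength and base composition also differed between these groups, so the exact test was repeated within limits on each. Inside these limits the groups were not matched further. The number of CG dinucleotides in the summit window was not limited. Its median was 2 in far peaks and 3, 3 and 17 in those between genes, inside genes and at starts. Among peaks with scores under 60, 3.57% of 224 far peaks had an e-box, against 11.1% of 198 between genes (exact test, adjusted p = 0.00502), 14.6% of 301 inside genes (2.74e-05) and 42.0% of 69 at starts (1.09e-13). Among windows with a G+C content of 45 to 55%, the far share was 2.97% of 236, against 16.3%, 15.0% and 24.1% (exact test, adjusted p = 1.22e-06, 1.22e-06 and 0.000185). With both limits together it was 2.89% of 173, against 10.9%, 12.0% and 26.7% (exact test, adjusted p = 0.00739, 0.00282 and 0.00533). The difference from the 13 CLK:BMAL1 peaks could not be resolved at scores under 60, where only 3 of them remained (exact test, adjusted p = 0.115).

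The far peaks had the lowest share in every score band below 100. From 50 to 55 the share was 3.62% of 138 peaks, from 55 to 60 it was 3.49% of 86, and from 60 to 70 it was 3.70% of 54. From 70 to 100 none of 24 peaks had the motif, which allows a share of up to 12.5% (3 counts), while 26.8% of 56 peaks between genes and 28.6% of 70 inside genes did in that band. At 100 and above, 3 of 6 far peaks had it, with an interval of 11.8 to 88.2%. In that band the share was 73.1% of 26 peaks between genes, 54.5% of 22 inside genes and 61.2% of 49 at starts. Ranked by score, 4 of the 77 highest far peaks and 2 of the 77 lowest had an e-box, a difference that did not pass the threshold (Fisher's exact test, two-sided, p = 0.681). Ranked by fold enrichment the numbers were 8 and 0 of 77 (exact test, p = 0.00645), and ranked by tags 5 and 1 of 77 (exact test, p = 0.209). Of these measures of strength, only fold enrichment gave a difference that passed.

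**Figure D3:**
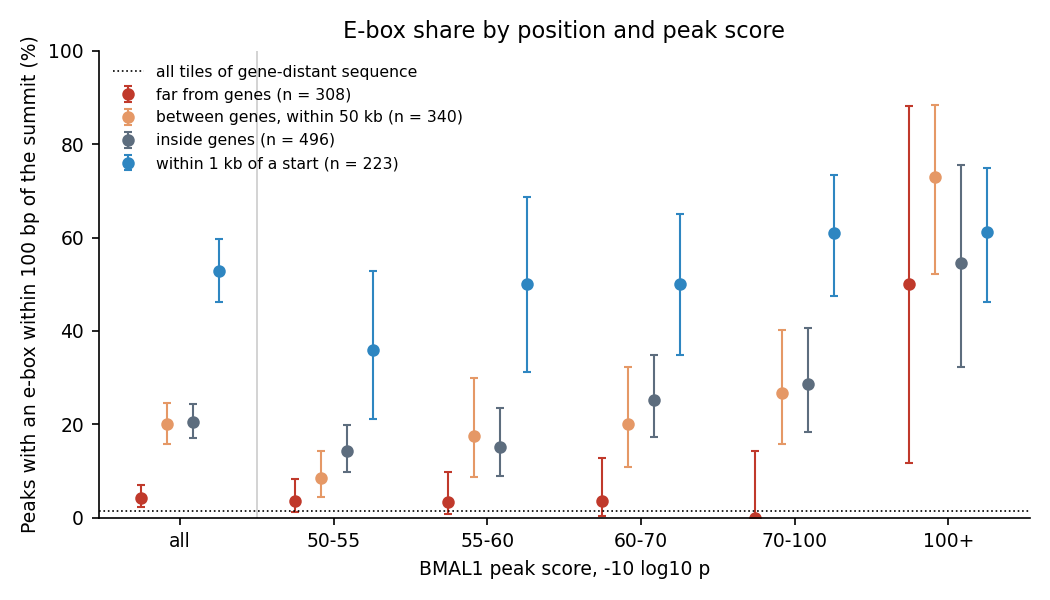
Share of BMAL1 only peaks with an e-box within 100 bp of the summit (vertical axis, %), for all peaks and by BMAL1 peak score (horizontal axis), with 1 colour for each position group and exact 95% confidence intervals as bars. The dotted line is the 1.49% of gene-distant tiles of the window's length; far peaks stay between 0 and 3.70% in the bands below 100, under the other groups in each band.

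Within 500 bp on either side of the far summits there were 43 e-boxes in the 308 peaks, 17 of them within 100 bp of the summit. Of these 17, 7 came from the 3 peaks with more than 1 core. In the 25 bp bin just before the summit there were 0.974 e-boxes per 100 far peaks and 8.69 per 100 of the other 1059 BMAL1 only peaks. Tandem sites were looked for within 100 bp of the summit, as CACGTG with a further hexamer of at most 1 mismatch and up to 20 bp between them. The far peaks held 7 such pairs, none at a spacing of 6 or 7 bp, whereas 25 of the 132 pairs in the other BMAL1 only peaks (18.9%) had that spacing. A count of 0 of 7 allows a share of up to 42.9%, so a difference was not detectable.

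**Figure D4:**
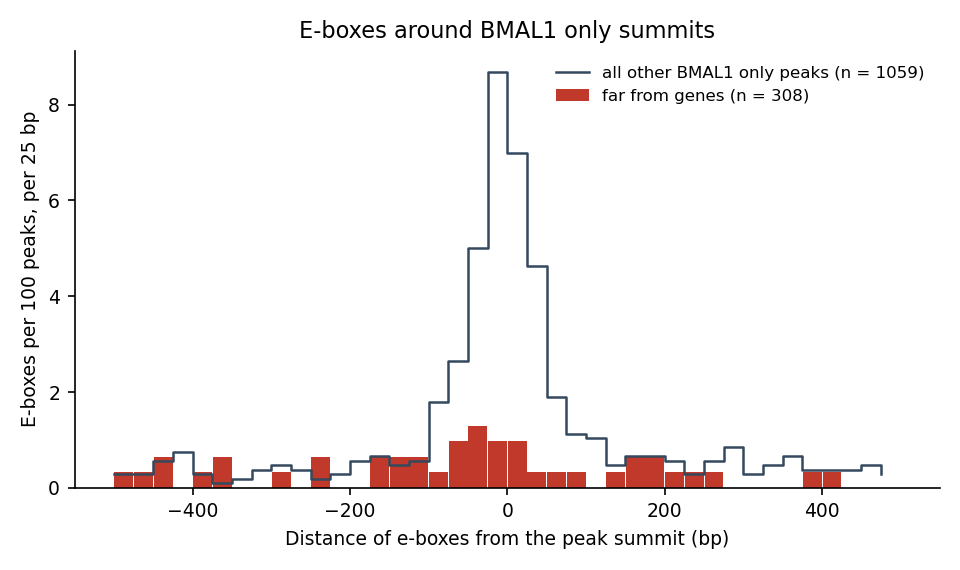
E-boxes per 100 peaks in 25 bp bins (vertical axis) against distance from the summit in bp (horizontal axis), as bars for the 308 far peaks and as a line for the 1059 other BMAL1 only peaks. The far peaks reach 1.30 per 100 in their highest bin and the other peaks 8.69.

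Hexamers close to CACGTG were also counted. At least 1 core with at most 1 mismatch, CACGTG itself included, was found at 56.5% of far summits and in 38.6% of the flanks (exact McNemar test, p = 1.03e-05). The hexamer CAGGTG, which is a core for other basic helix-loop-helix proteins, was found with its reverse complement at 20.5% of summits against 11.7% of flanks, and CATGTG at 22.7% against 14.9%. CAAGTG was present at 13.6% against 8.44%, and CACGGG at 5.19% against 1.30%. These were the hexamers with the greatest excess. Of all 9 hexamers with 1 mismatch, each counted with its reverse complement, 4 others were higher at the summit by less than 1 percentage point and CACGTA was lower (0.974% against 2.27%). In the other 1059 BMAL1 only peaks CAGGTG was found at 22.3%, CATGTG at 22.9%, CAAGTG at 12.5% and CACGGG at 8.69%, so for the first 3 the values were close to those of the far peaks. The share with at most 1 mismatch, which includes exact e-boxes, was lower than in the BMAL1 only peaks between genes (238 of 340, exact Fisher test, adjusted p = 0.000576), inside genes (69.8%, adjusted p = 0.000295) and at starts (91.5%, adjusted p = 1.67e-19). The summit windows of far peaks were also richer in G+C than their flanks, as described next, and its part in the frequency of these hexamers was not tested.

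The G+C content rose towards the far summits. The median was 50.2% within 100 bp of the summit and 41.6% in the flank, and 272 of the 308 peaks (88.3%) had more G+C at the summit than in their own flank, with a median difference of 9.13 percentage points (interquartile range 4.08 to 13.1). The same direction was found in 84.7% of the peaks between genes, 87.7% of those inside genes and 87.0% of those at starts. The median at the summit was 51.2%, 51.2% and 65.7% in these groups. Gene-distant sequence had a mean G+C content of 39.7%. The far peaks with an e-box had a median of 54.7% and those without one 49.8%.

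**Figure D5:**
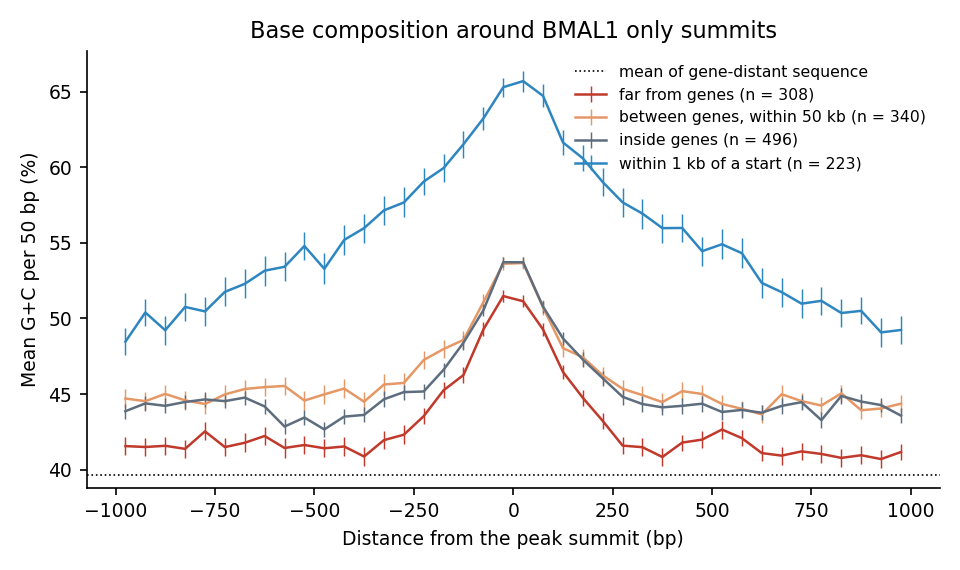
Mean G+C content in 50 bp bins (vertical axis, %, bars are the standard error over peaks) against distance from the summit in bp (horizontal axis) for each position group of BMAL1 only peaks. The far peaks rise to 51.5% just before the summit, from values near the dotted line, the 39.7% mean of gene-distant sequence.

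Other motifs were searched on both strands within 100 bp of the summit and in the flank, and are given as descriptions. The nuclear receptor motif AGGTCA was present at 13.6% of far summits and 9.42% of flanks, and the AP-1 motif TGANTCA at 7.14% and 4.87%. The NF-Y motif CCAAT was found at 29.9% and 26.9%, the FOXA motifs TGTTTAC or TGTTTGC at 6.49% and 6.17%, and the C/EBP motif TTGCNNAA at 7.47% and 9.09%. The GC box GGGCGG, common in promoters, was found at 4.22% of far summits and 4.22% of flanks, whereas 58.3% of the peaks at starts held it. In the other 1059 BMAL1 only peaks, AGGTCA was present at 15.1% of summits and 8.40% of flanks, and TGANTCA at 5.85% and 4.53%. A higher share at the summit for these 2 motifs was thus not particular to the far peaks.

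The distance to the assigned start had a median of 153176 bp. It was 50000 to 100000 bp for 99 peaks, 100000 to 200000 bp for 100, 200000 to 500000 bp for 82, 500000 to 1000000 bp for 20 and beyond that for 7. With the strand of the gene taken into account, 166 peaks (53.9%) lay before the start and 142 (46.1%) past the end of the gene. Of those past the end, 31 were within 50000 bp of it, so their distance to the gene was shorter than that to its start. The e-box share was 2.41% before the start (4 peaks) and 6.34% past the end (9 peaks), a difference that was not tested. In the deposited table the sign of the distance is the start minus the peak centre in genome coordinates, for all 308 peaks, and does not show upstream from downstream. The median score was between 54.7 and 57.0 in every distance bin.

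At the limit of 50000 bp, the 2 nearest peaks inside the selection were those of Spata7 (50022 bp, score 75.25) and AK030468 (50269 bp, score 57.91). The nearest outside it were those of DQ547751 (49954 bp, score 52.03) and Pik3c3 (49942 bp, score 50.51). None of these had an e-box. The farthest peaks were assigned to B230118H07Rik (2376618 bp, score 67.87), to Cdh6, a cadherin gene (1900830 bp, score 54.67), and to AK043174 (1829601 bp, score 50.82).

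A second annotation of the same build, GENCODE M1, did not place all 308 peaks far from genes. In it 29 summits (9.42%) lay inside a gene, 26 of them inside a protein-coding gene, and 100 (32.5%) lay within 50000 bp of a start. Both conditions together left 194 peaks (63.0%) far from every gene, or 250 (81.2%) when only protein-coding genes were counted. The nearest protein-coding start carried the symbol of the deposited table in 162 cases (52.6%). Among the stronger peaks, the Itpr1 summit lay inside Itpr1, 26229 bp downstream of a start, the Spata13 summit lay inside Spata13, which encodes a guanine nucleotide exchange factor, and the Fam196a summit lay inside Dock1, an activator of Rac. The peak listed under Rragd was 69543 bp from the start of Rragc, the GENCODE name for the gene model that the table calls Rragd. The Spata7 peak was 268 bp from a start of Kcnk10, a potassium channel gene, and 1 summit was 29 bp from a start of Scn9a, a sodium channel gene. In all, 5 far summits (1.62%) were within 1000 bp of a GENCODE start, against 5.88% of the peaks between genes. None of these 5 far summits had an e-box, but they are too few for a comparison with other peaks.

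The peaks that were far by both annotations gave a similar picture. Of the 194, 6 had an e-box (3.09%, exact 95% confidence interval 1.14 to 6.61%) and 3 had it in the flank (p = 0.508, exact McNemar test). The gene-distant part of the genome by GENCODE was 28.1% of the tiles, or 719 Mb, and it held 216 of the 1367 BMAL1 only peaks compared (15.8%). Over the 19 autosomes the far peaks in that territory ranged from 0.163 per Mb on chromosome 12 to 0.489 on chromosome 13, with a median of 0.286. The X chromosome, with 4.57% of the territory, had 0 of 308 far peaks, which allows a share of up to 0.974% (3 counts). Only 4 BMAL1 only peaks of any position were on X. The mice were male, and the tag coverage of X was not compared with that of the autosomes.

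The nearest other BMAL1 summit was a median of 595943 bp away, against 351230 bp for peaks between genes within 50000 bp. In all, 21 far peaks (6.82%) had another BMAL1 peak within 50000 bp, and 13 (4.22%) had a CLK peak within that distance. For the peaks between genes, inside genes and at starts the shares were 13.5%, 9.88% and 14.8% for BMAL1, and 5.88%, 5.04% and 8.07% for CLK. Most peaks of each group thus had no such neighbour. The far peaks had the lowest share for both proteins, and these differences were not tested. In 8 cases 2 far peaks lay within 50000 bp of each other. The closest pair, both assigned to Fam196a, had summits 1363 bp apart with scores of 72.69 and 108.97. The next were a pair at 2610039C10Rik, 2156 bp apart with scores of 51.70 and 56.33, and a pair at Sntb1, a syntrophin gene, 13194 bp apart with scores of 51.71 and 52.26. None of these 6 peaks had an e-box.

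A CLK peak close by, without overlap, was found at 2 far peaks. The N4bp1 peak (score 50.15) had its summit 474 bp from a CLK summit. The peak assigned to uc008ysg.1, chr5:111934068-111934703, had a score of 60.69 and lay 1190 bp from the BMAL1 summit of a CLK:BMAL1 peak. The median distance from a far peak to the nearest CLK:BMAL1 peak was 4712950 bp (4.71 Mb). For the peaks between genes, inside genes and at starts it was 3069890, 3872730 and 2833640 bp.

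The 308 peaks were assigned to 295 genes or transcripts by name or identifier, 12 of which had more than 1 far peak. Clock genes were rare in this list, as they were among the peaks between genes. Of 34 clock genes, only Rora, a nuclear receptor that activates Bmal1 transcription, had a far peak, with a score of 50.56, 15 tags and no e-box, and its summit lay inside Rora in GENCODE. That is 0.325% of the far peaks, and 1 of the 340 peaks between genes within 50000 bp (0.294%) was assigned to a clock gene. By comparison 6 clock genes had a BMAL1 only peak within 1000 bp of a start and 5 inside the gene. No far peak was assigned to any of 47 genes of high expression in liver or of 50 genes of hepatic metabolism, and these lists also had few BMAL1 only peaks elsewhere, at most 3 in any position group.

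Developmental transcription factor genes, and the genes of cell adhesion and axon guidance below, were taken by the start of their symbols. Irx2, an Iroquois homeobox gene, had a far peak with a score of 55.50, and Tbx5, a T-box gene of heart and limb, had one with a score of 54.89. The symbol Fox1 matched by its letters only, since GENCODE calls this gene Rbfox1, which encodes an RNA-binding splicing factor. Genes of cell adhesion and axon guidance had 8 far peaks on 7 genes (2.60% of the 308), compared with 0.294% of the peaks between genes, 1.81% of those inside genes and 0.448% of those at starts. They included Efnb2, an ephrin gene (score 64.20), Slit3, a Robo ligand gene (62.65), and Cntn6, a contactin gene (57.67). Slitrk6 had 2 of the 8 peaks, the stronger with a score of 62.63, and entered the list by the letters Slit. These lists are given as a description, and nothing particular to them was tested. Transcripts without a gene name, with symbols such as AK029768, made up 87 of the 308 peaks (28.2%), compared with 22.1% of the peaks between genes, 7.46% of those inside genes and 9.87% of those at starts.

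Some genes with a far BMAL1 only peak also carried a site of both proteins. Of 281 gene symbols, 3 had a CLK:BMAL1 peak, namely Itpr1, Maf, a bZIP transcription factor gene, and Mpp6, a membrane-associated guanylate kinase gene. At Itpr1 the far peak and the nearest CLK:BMAL1 peak were 53063 bp apart. The Mpp6 far peak (score 70.10) was 37515 bp from a CLK:BMAL1 peak, and that of Maf (score 53.79) was 550881 bp from one. A further BMAL1 only peak was assigned to 20 of the symbols and a CLK only peak to 25. The same shares were not computed over all genes or for the other position groups. These counts therefore cannot be called high or low for the far peaks.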

How the data were processed

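ChIP-Seq libraries from mouse liver at ZT8 (CLK ChIP, BMAL1 ChIP and Input, 1 library each) were mapped by the authors to mm9 with bowtie, keeping uniquely mapped reads, and peaks were called per antibody with MACS against Input (tags of 36 bases, a p-value limit of 1e-05, a band width of 80 and a model fold of 5). Per the file headers, the deposited peak files give tag counts, a score of 10 times the negative log10 of p, a fold enrichment ratio over Input and a false discovery rate in percent, and the deposited table gives each peak's assigned gene. The labels also name CASAVA 1.6. The table was joined to the BMAL1 peak file by position, and every BMAL1 only peak was matched. One row, whose gene start lies beyond the end of its chromosome, was left out, as 1 of the 1368.

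Sequence was read from NCBIM37 at the summit ± 100 bp and from the flank (400 to 500 bp on both sides), on both strands. The genome given had no repeat marking, so repeats were not analysed here. E-box shares were compared with exact McNemar and two-sided Fisher's exact tests (scipy 1.17.1, pysam 0.24.0, pandas 2.3.3), adjusted by Benjamini-Hochberg over 4 pairs. Intervals are exact Clopper-Pearson at 95% and, like the limit of 3 counts for a count of 0, cover counting error only. The motif search was tested on simulated data and found every planted hexamer in 1000 windows. Alternatives were other windows, mismatches, thresholds of score, false discovery rate and distance, the peak centre, both annotations and removal of peaks near CLK peaks. The limits on score and G+C were added after seeing the data.

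Named peaks were the 10 of highest score, those on clock genes, the 3 strongest without an e-box, the 3 farthest, the 2 on each side of the 50000 bp limit, the 3 strongest inside or within 1000 bp of a GENCODE gene, up to 4 for each gene list (1 result of these is not reported here), the 3 closest pairs and the peaks with more than 1 e-box. The other e-box peaks, Scn9a, N4bp1, uc008ysg.1, Maf and Mpp6 were named after their values were seen. The members and the gene lists were chosen with earlier results of these data known.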

Additional observations from a re-analysis of the deposited data

How the results depend on the processing

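Of 77 recomputed values, 59 kept their direction and their side of the threshold or stayed within their interval or, for a count, within 1.5 times the main value (209 far peaks lay beyond 100000 bp). For far peaks against peaks between genes, inside genes and at starts, the e-box difference did so in 33 of 36 settings. The exceptions were at a score of at least 100, where 6 far peaks remained and the differences were -23.1, -4.55 and -11.2 percentage points (exact test, adjusted p = 1 for each), and where the difference from the CLK:BMAL1 peaks turned to 16.7 points in favour of the far peaks (3 of 6 against 33.3% of 6, adjusted p = 1). Against those CLK:BMAL1 peaks the difference also lost its call at scores of 50 to 60 (-29.8 points), and with a G+C content of 45 to 55% as well (-30.4 points), with 3 such peaks left.

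The excess of e-boxes at far summits over flanks, 2.60 points, passed the threshold with at most 1 mismatch (17.9 points), at the peak centre (3.25), beyond 100000 bp (3.83) and without peaks near a CLK peak (2.94). It did not pass in the other settings, among them a G+C content of 45 to 55% (1.27 points). The cause of the excess was not tested. The 77 highest against the 77 lowest far peaks passed when ranked by fold enrichment (10.4 points) and not by score (2.60) or tags (5.19). With a false discovery rate of at most 5% the medians moved to a score of 66.5, a fold of 7.37 and 23 tags, by construction. The number of far peaks was 194 by both annotations, 80 at that false discovery rate and 6 at a score of at least 100, and the share far in the second annotation was 81.2% with protein-coding genes only.

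No paired analysis was possible because each antibody had 1 library. The single BMAL1 library and the low tag counts, a median of 19 per far peak, limit every value for a single site.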
